A study of Saccharomyces cerevisiae with 15 samples.

Results

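The 41 genes described here encode enzymes of amino acid synthesis in the yeast Saccharomyces cerevisiae, outside the leucine and methionine branches. They belong to the arginine (8 genes), histidine (6), lysine (7), aromatic (8), threonine (5), serine (3), asparagine (2), and glutamate and glutamine (2) pathways. They were taken by systematic name and not by their measured values, though with earlier results of these data known, from a table of 7126 genes. HIS3 of the histidine pathway is not among them. Of the 41 genes, 40 passed the filter on low values, at least 1 FPKM (reads scaled to gene length and library depth) in at least 3 libraries. The other, LYS2, was listed at 0 in all 15 libraries.

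The study sequenced mRNA of cultures that carry different alleles of HSF1, the gene of the heat shock transcription factor, and its title names contacts of Hsf1 with the chaperone Hsp70. There were 5 groups of 3 libraries, stated to be biological replicates. They were wild type HSF1 moved to 37 °C for 15 min (WT 37 °C), and the alleles hsf1-mNmC, hsf1-mN and hsf1-mC and wild type HSF1, each kept at 30 °C (mNmC, mN, mC and WT 30 °C). The medium of all cultures was YPD, a rich one that supplies amino acids, and cells were in mid-log phase. All p-values below rest on the spread between cultures labelled as the same group, estimated over all groups of a fit. The labels do not say what the alleles change, how they are carried or which other markers the strain has. Each library is a whole culture measured relative to its own reads, so less RNA of a gene per cell, fewer cells making it and a change in total RNA cannot be told apart.

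Baker's yeast makes every protein amino acid from central carbon intermediates and ammonium. Gcn4, a transcription factor whose own translation rises when amino acids run short, activates genes in many of these pathways through sites with the core TGACTC. Single pathways also have regulators of their own, such as the arginine repressor complex of Arg80, Arg81 and Mcm1, or Lys14, which activates lysine genes when a pathway intermediate is present.

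A pair of libraries stood apart from their labels. Counts of calls are therefore given with all 15 libraries as labelled and with 13 libraries that leave both out, and calls of members made in 1 of these ways alone are marked as such. Over all tested genes, that labelled mNmC replicate 3 correlated at 0.997 on average (Spearman) with WT 37 °C replicates 1 and 2 and at 0.921 with mNmC replicates 1 and 2. That labelled WT 37 °C replicate 3 correlated at 0.996 with mNmC replicates 1 and 2 and 0.918 with WT 37 °C replicates 1 and 2. Over the amino acid genes, the median absolute log2 difference of the first was 0.033 from WT 37 °C and 0.551 from mNmC, and that of the second was 0.549 from WT 37 °C and 0.058 from mNmC. The heat-induced catalase gene CTT1 was at 979.8 FPKM in the library labelled mNmC replicate 3 and at 20.4 FPKM in that labelled WT 37 °C replicate 3. No library was moved to another group. A further library, mN replicate 1, correlated less with its own group (0.980) than mN replicates 2 and 3 did (0.989 and 0.988), and mN results are also given without it (12 libraries). Worked out from the FPKM values, libraries held 15462618 to 25409519 reads, and the 40 tested genes had 174 to 34407 reads each.

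The promoters of 4 members are shown, ARG5,6 with HIS4 and LYS1 with LYS12. The genes of a pair share a short sequence but moved in opposite directions at 37 °C with 13 libraries. They were chosen after the values were seen, and other sequences searched for differed within the pairs. Each is the RefSeq R64 sequence from 250 bases before the start codon to 50 bases from it on, 300 bases, written 5′ to 3′ on the gene's strand. Capitals mark TGACTC or its reverse complement GAGTCA, the Gcn4 core. In the lysine genes they also mark TCCNNNGGA, the pattern searched for Lys14, which leaves its middle bases free. Whether Lys14 binds a given match was not tested. ARG5,6 (YER069W, acetylglutamate kinase and the reductase after it, at chrV:295160-295459, plus strand) and LYS1 (YIR034C, the last enzyme of lysine synthesis, at chrIX:420687-420986, minus strand) were called higher at 37 °C, ARG5,6 with 15 and with 13 libraries and LYS1 with 13 libraries alone. HIS4 (YCL030C, a multifunctional enzyme of histidine synthesis, at chrIII:68284-68583, minus strand) and LYS12 (YIL094C, homoisocitrate dehydrogenase, at chrIX:187583-187882, minus strand) were called lower at 37 °C with 13 libraries alone.
ARG5,6: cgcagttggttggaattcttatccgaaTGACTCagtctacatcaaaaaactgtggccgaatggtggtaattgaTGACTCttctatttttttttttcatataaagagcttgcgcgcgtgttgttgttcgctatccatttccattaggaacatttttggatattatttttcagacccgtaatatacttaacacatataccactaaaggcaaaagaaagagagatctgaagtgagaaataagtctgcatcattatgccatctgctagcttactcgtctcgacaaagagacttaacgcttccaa
HIS4: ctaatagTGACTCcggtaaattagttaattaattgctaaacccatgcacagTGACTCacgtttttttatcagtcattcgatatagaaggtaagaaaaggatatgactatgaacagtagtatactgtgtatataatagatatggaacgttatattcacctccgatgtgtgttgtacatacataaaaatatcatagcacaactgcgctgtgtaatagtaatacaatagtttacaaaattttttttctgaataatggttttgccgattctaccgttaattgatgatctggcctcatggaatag
LYS1: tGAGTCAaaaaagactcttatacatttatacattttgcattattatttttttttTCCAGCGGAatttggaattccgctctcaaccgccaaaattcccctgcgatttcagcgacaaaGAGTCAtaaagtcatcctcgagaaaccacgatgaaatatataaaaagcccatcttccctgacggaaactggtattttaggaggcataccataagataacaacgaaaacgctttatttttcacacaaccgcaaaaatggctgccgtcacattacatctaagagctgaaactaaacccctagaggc
LYS12: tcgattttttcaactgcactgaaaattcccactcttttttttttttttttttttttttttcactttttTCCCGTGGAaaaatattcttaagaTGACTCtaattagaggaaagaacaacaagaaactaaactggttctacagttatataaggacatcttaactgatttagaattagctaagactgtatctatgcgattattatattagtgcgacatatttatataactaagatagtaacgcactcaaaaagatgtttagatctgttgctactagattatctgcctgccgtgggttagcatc
ARG5,6 and HIS4 both hold 2 copies of the Gcn4 core, at 223 and 177 bases before the start codon in ARG5,6 and at 243 and 199 in HIS4. LYS1 and LYS12 both hold the Lys14 pattern, as TCCAGCGGA and TCCCGTGGA, at 196 and 182 bases before the start codon. LYS1 holds 2 copies of the Gcn4 core and LYS12 holds 1.

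Searched on both strands, the Gcn4 core was in 23 of the 41 windows (56.1%), against 8.0% of 6001 RefSeq windows of the same length. It was in 5 of 6 histidine genes, 4 of 8 arginine genes, 4 of 8 aromatic genes, 3 of 7 lysine genes, 3 of 5 threonine genes, 2 of 3 serine genes, both asparagine genes and neither GDH1 nor GLN1. The Lys14 pattern was in 3 of 7 lysine genes (LYS1, LYS9 and LYS12), in no other member and in 3.4% of all windows. GATAAG, bound by the nitrogen regulators Gln3 and Gat1, was in 11 of 41 windows (26.8%, against 14.7% of all), among them 5 of 8 arginine genes. The stress element AGGGG was in 3 of 41 (7.3%, against 21.6%), and the heat shock element, searched as 3 alternating GAA and TTC units with 2 bases between units, was in 0 of 41, against 0.8%. Within the pairs shown above, GATAAG was in ARG5,6 but not in HIS4, and AGGGG was in LYS1 but not in LYS12. A match describes letters only, and a window without one says nothing of the factor.

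In WT 30 °C the members had a median of 122 FPKM, against 32.9 FPKM for all tested genes. GLN1 (YPR035W), which makes glutamine, was highest at 1154 ± 25.8 FPKM (SD, n = 3). HOM6 (homoserine dehydrogenase) followed at 873 ± 21.5, THR1 (homoserine kinase) at 735 ± 25.6, HOM2 (aspartate semialdehyde dehydrogenase) at 581 ± 6.82 and ASN1 (asparagine synthetase) at 566 ± 3.84 FPKM. Threonine genes thus took 3 of the 4 highest places. The lowest levels were those of arginine genes, ARG8 (acetylornithine aminotransferase) at 23.6 ± 1.55, ARG5,6 at 19.1 ± 0.831 and ARG3 (ornithine carbamoyltransferase) at 8.98 ± 0.502 FPKM. Of the 39 neighbouring pairs in this order, 13 had libraries that overlapped, such as GDH1, THR4, ASN2 and HIS1 which had means of 493 to 512 FPKM.

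LYS2, the aminoadipate reductase of lysine synthesis and a common marker of laboratory strains, was listed at 0 in every group. URA3 and LEU2, other such markers, were also listed at 0 throughout, while HIS3, TRP1, MET17 and ADE2 had reads in every library. HIS3, not a member, is a marker gene too. It was at 469 and 416 FPKM in WT 37 °C replicates 1 and 2, with labelled replicate 3 at 196, at 194 and 199 in mNmC replicates 1 and 2, with labelled replicate 3 at 443, at 181, 318 and 296 in mN, at 612, 631 and 592 in mC and at 497, 496 and 438 FPKM in WT 30 °C. The levels in mN and in mNmC replicates 1 and 2 lay below all WT 30 °C libraries and those in mC above all of them. The labels do not say whether these HIS3 reads come from the native gene or from a marker.

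**Figure D1:**
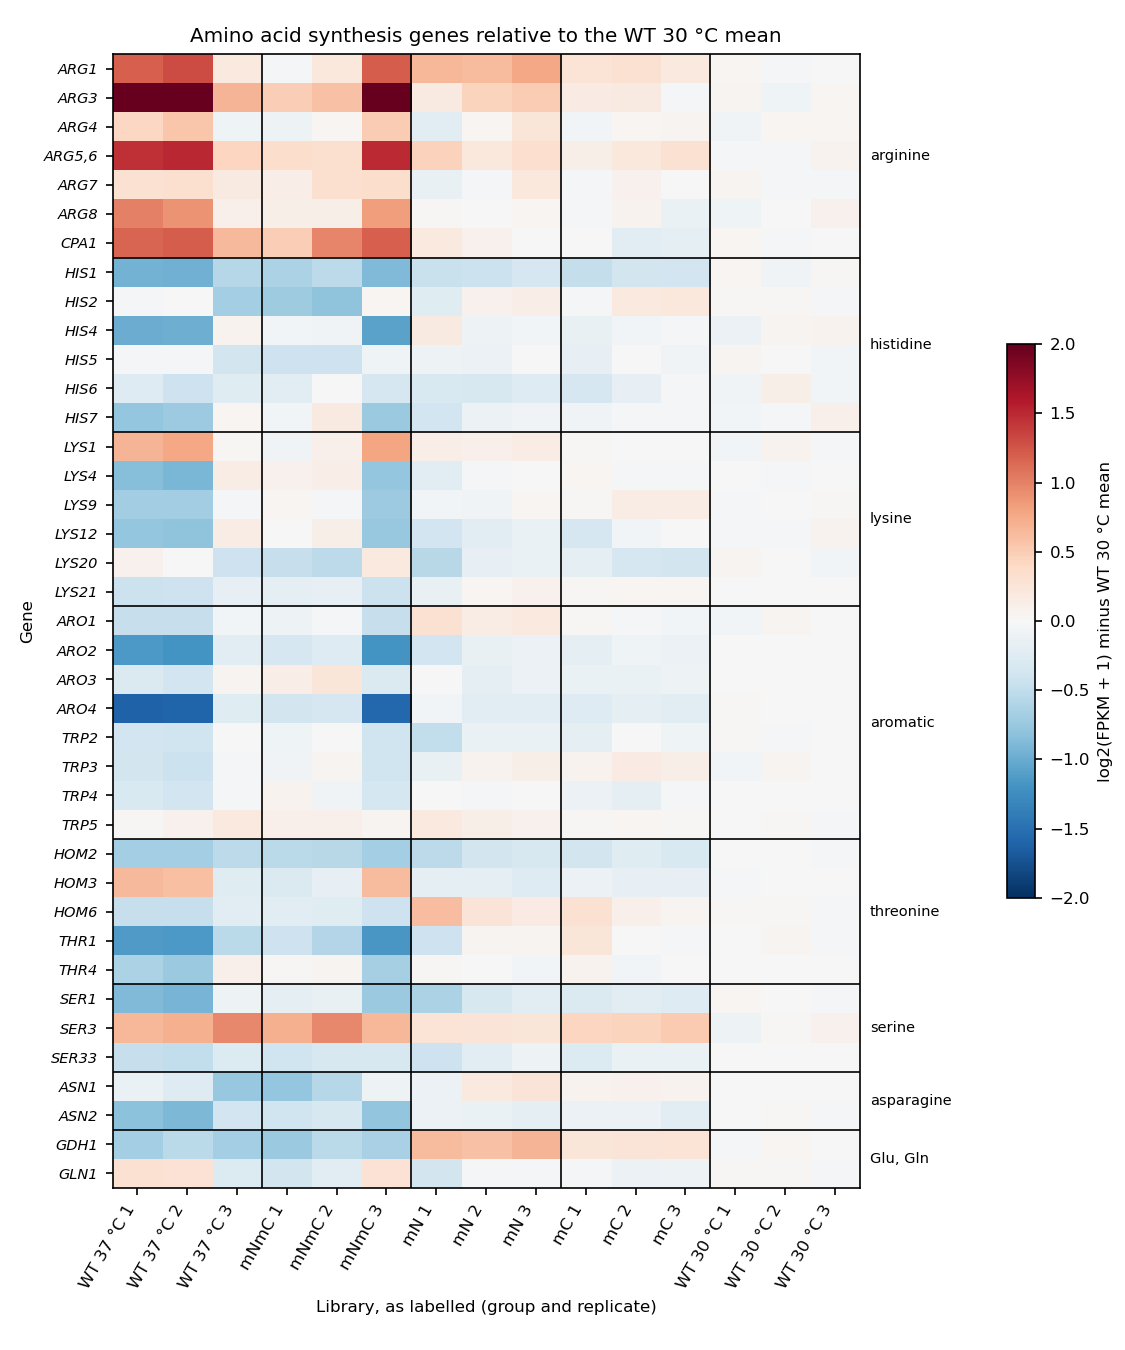
Difference of log2(FPKM + 1) from the WT 30 °C mean for 39 of the 40 tested amino acid genes (vertical, by pathway) in each of the 15 libraries as labelled (horizontal); the colour scale ends at -2 and 2, and ARG3 exceeds it. The library labelled mNmC 3 has the colours of WT 37 °C 1 and 2, and that labelled WT 37 °C 3 has those of mNmC 1 and 2.

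At 37 °C the pathways moved in different directions. Arginine genes rose, while genes of aromatic, histidine and threonine synthesis mostly fell. As labelled, 7 of 40 members were higher in WT 37 °C than in WT 30 °C, 12 were lower and 21 did not pass (limma, Benjamini-Hochberg adjusted p under 0.05 over all 6399 tested genes). Of all tested genes 38.1% passed, 32.1% higher and 5.97% lower. The count of 19 members was 8 without WT 37 °C replicate 1 or replicate 2, 9 without any 1 WT 30 °C library and 32 without the library labelled WT 37 °C replicate 3. Here and below, the share of all genes in fits that leave out 1 library was not taken unless given. Such counts cannot be read as particular to the members. With 13 libraries 11 members were higher, 23 lower and 6 did not pass, against 65.9% of all genes called, 47% higher and 18.9% lower. Of the called members, 6 higher and 12 lower were called both ways. With 13 libraries alone, 5 more were called higher (ARG4, ARG7, LYS1, HOM3 and GLN1) and 11 more lower (HIS4, HIS7, LYS4, LYS9, LYS12, ARO1, ARO3, TRP2, TRP3, TRP4 and THR4), and 1 other member was called as labelled alone. The median log2 fold change of the members was -0.29 as labelled and -0.37 with 13 libraries, against 0.26 and 0.29 over all genes. Scaling each library to its 75th percentile moved the median of all genes to 0.04 and 0.05. It left 4 members higher and 20 lower as labelled (16.3% and 13.5% of all genes), and 9 higher and 27 lower with 13 libraries (34.3% and 30% of all genes). Fold changes below are differences of log2(FPKM + 1) with 13 libraries unless said otherwise, and understate those of genes near 1 FPKM; WT 37 °C and mNmC then have 2 libraries each.

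Of 8 arginine genes, 6 were higher as labelled (3 of them after 75th percentile scaling) and 7 with 13 libraries (6 after that scaling), and none was lower. Their summed level was 1167 to 1195 FPKM in WT 37 °C replicates 1 and 2 and 752 FPKM in the library labelled replicate 3, against 578 to 587 FPKM in WT 30 °C. ARG3 (YJL088W) was at 72.6 and 61.7 FPKM in WT 37 °C replicates 1 and 2 and at 15.1 in the library labelled replicate 3, against 9.33, 8.41 and 9.21 FPKM in WT 30 °C. All 3 libraries labelled WT 37 °C lay above all WT 30 °C libraries (53.9% of all genes had groups that did not overlap, in either direction), and labelled replicate 3 was far below the other 2. The log2 fold change of ARG3 was 2.77 ± 0.12 (SE; adjusted p = 4.08e-09), and 2.07 ± 0.60 as labelled (adjusted p = 0.0204). It was the largest change of any member.

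ARG5,6 was at 54.5 and 56.1 FPKM in WT 37 °C replicates 1 and 2 and 26.04 in labelled replicate 3, against 18.5, 18.7 and 20.03 FPKM in WT 30 °C, and rose by 1.49 ± 0.08 (adjusted p = 4.19e-08). ARG1 (YOL058W), argininosuccinate synthetase, was at 211 and 226 (labelled replicate 3, 105) FPKM in WT 37 °C, against 93.9, 88.1 and 90.99 FPKM in WT 30 °C. It rose by 1.25 ± 0.08 (adjusted p = 1.43e-07). In ARG5,6 and ARG1 no library labelled WT 37 °C overlapped WT 30 °C, and labelled replicate 3 was lowest of the 3. CPA1 (YOR303W), which takes part in making carbamoyl phosphate for arginine, was at 494 and 508 (labelled replicate 3, 345) FPKM in WT 37 °C, against 225, 216 and 217 FPKM in WT 30 °C, and rose by 1.19 ± 0.12 (adjusted p = 6.43e-06). ARG8 rose by 0.95 ± 0.08 and ARG4, argininosuccinate lyase, by 0.48 ± 0.12, but ARG4 did not pass as labelled (0.29 ± 0.18, adjusted p = 0.219). ARG7, ornithine acetyltransferase, had 0.31 ± 0.10 (adjusted p = 0.0144), which passed with 13 libraries but not as labelled (adjusted p = 0.0547), after 75th percentile scaling, or without WT 37 °C replicate 1 or replicate 2 (range 0.30 to 0.34).

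Aromatic genes fell in 7 of 8 cases with 13 libraries, in 2 as labelled (6 after 75th percentile scaling), and none rose. ARO4 (YBR249C) and ARO3 (YDR035W) are the 2 forms of the first enzyme, DAHP synthase, which are inhibited by tyrosine and by phenylalanine. ARO4 was at 143 and 145 FPKM in WT 37 °C replicates 1 and 2 and 371 in labelled replicate 3, against 447, 438 and 436 FPKM in WT 30 °C. All libraries labelled WT 37 °C were below WT 30 °C, replicates 1 and 2 by far more than labelled replicate 3. ARO4 changed by -1.61 ± 0.07 (adjusted p = 4.2e-09), and by -1.15 ± 0.36 as labelled (adjusted p = 0.0256). ARO3 was at 186 and 173 (labelled replicate 3, 235) FPKM in WT 37 °C, against 227, 225 and 228 FPKM in WT 30 °C, a fall of 0.34 ± 0.07 (adjusted p = 0.00111; not called as labelled). ARO2, chorismate synthase, was at 173 and 167 (labelled replicate 3, 328) FPKM in WT 37 °C, against 388, 386 and 382 FPKM in WT 30 °C, and fell by 1.18 ± 0.08 (adjusted p = 2.51e-07). ARO1, an enzyme of several shikimate steps, changed by -0.46, and the tryptophan genes TRP2, TRP3 and TRP4 by -0.39, -0.40 and -0.34. As labelled none of these 4 passed, with adjusted p-values of 0.0573 for ARO1, 0.144 for TRP2, 0.117 for TRP3 and 0.104 for TRP4 (limma). TRP5, tryptophan synthase and the last step, was at 211 and 221 (labelled replicate 3, 238) FPKM in WT 37 °C, against 208, 212 and 204 FPKM in WT 30 °C, and did not pass (0.05 ± 0.06, adjusted p = 0.437).

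Histidine genes fell in 4 of 6 cases with 13 libraries and in 2 as labelled (4 after 75th percentile scaling). HIS1 (YER055C), the first enzyme, was at 256 and 254 FPKM in WT 37 °C replicates 1 and 2 and 331 in labelled replicate 3, against 509, 472 and 499 FPKM in WT 30 °C. It fell with no overlap, by 0.95 ± 0.07 (adjusted p = 3.98e-07). HIS4 was at 62.7 and 63.8 FPKM in WT 37 °C replicates 1 and 2, against 116, 130.5 and 132 FPKM in WT 30 °C, while labelled replicate 3, at 132 FPKM, lay within the range of WT 30 °C. The change of HIS4 was -0.98 ± 0.09 (adjusted p = 2.3e-06), and -0.63 ± 0.29 as labelled (adjusted p = 0.0981). HIS7, which makes the imidazole ring, fell by 0.75 ± 0.10, though not as labelled (-0.49 ± 0.23, adjusted p = 0.114). HIS6, an isomerase before it, fell by 0.33 ± 0.10; with 13 libraries the call of HIS6 was lost without WT 30 °C replicate 2 or WT 37 °C replicate 2 (range -0.41 to -0.25). HIS2 and HIS5 did not pass, at -0.02 and -0.03, but both were called lower after 75th percentile scaling (-0.27 and -0.28).

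Lysine genes split. LYS4 (homoaconitase), LYS12 and LYS9 (the saccharopine-forming enzyme), which stand early and late in the pathway, fell by 0.88 ± 0.07, 0.79 ± 0.10 and 0.70 ± 0.07, with 13 libraries but not as labelled. LYS1 was at 105 and 112 FPKM in WT 37 °C replicates 1 and 2 and 66.8 in labelled replicate 3, against 62.8, 69.1 and 64.7 FPKM in WT 30 °C. It rose by 0.72 ± 0.07 (adjusted p = 3.25e-06), but did not pass as labelled (0.49 ± 0.21, adjusted p = 0.0816). LYS20 (YDL182W) and LYS21 (YDL131W) both encode homocitrate synthase, the first enzyme. LYS20 was at 191 and 179 (labelled replicate 3, 135) FPKM in WT 37 °C, against 187, 180.5 and 175 FPKM in WT 30 °C, and did not pass (0.03 ± 0.11), although it was called lower after 75th percentile scaling (-0.22). LYS21 was at 92.8 and 93.8 (labelled replicate 3, 112) FPKM in WT 37 °C, against 126, 126 and 124 FPKM in WT 30 °C, and fell with all 15 libraries and with 13 (-0.42 ± 0.07, adjusted p = 0.000261).

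Threonine genes fell in 4 of 5 cases with 13 libraries and in 3 as labelled, and the exception with 13 libraries was the gene of the first enzyme. HOM3 (YER052C), aspartate kinase, was at 400.5 and 384 FPKM in WT 37 °C replicates 1 and 2 and 215 in labelled replicate 3, against 250.0, 255 and 256 FPKM in WT 30 °C, and rose by 0.63 ± 0.06 (adjusted p = 3.97e-06; not called as labelled). THR1 was at 333 and 331 (labelled replicate 3, 503) FPKM in WT 37 °C, against 729.8, 763 and 713 FPKM in WT 30 °C, and fell by 1.14 ± 0.14 (adjusted p = 1.81e-05). HOM2 was at 363 and 364 (labelled replicate 3, 405) FPKM in WT 37 °C, against 585, 586 and 574 FPKM in WT 30 °C, and fell by 0.68 ± 0.07. HOM6 was at 637 and 631 (labelled replicate 3, 743) FPKM in WT 37 °C, against 884, 887 and 849 FPKM in WT 30 °C, and fell by 0.46 ± 0.12. THR1, HOM2 and HOM6 also fell as labelled, with no library overlapping. THR4, threonine synthase, fell by 0.69 ± 0.07, though not as labelled (-0.43 ± 0.22, adjusted p = 0.139).

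Within serine synthesis the isozymes of the first step, phosphoglycerate dehydrogenase, went opposite ways. SER3 (YER081W) was at 55.2 and 57.4 (labelled replicate 3, 68.5) FPKM in WT 37 °C, against 32.1, 35.2 and 36.9 FPKM in WT 30 °C, and rose by 0.68 ± 0.08 (adjusted p = 2.12e-05). SER33 was at 76.7 and 74.9 (labelled replicate 3, 86.8) FPKM in WT 37 °C, against 106, 105 and 105 FPKM in WT 30 °C, and fell by 0.47 ± 0.09 (adjusted p = 0.000655). Labelled replicate 3 was the highest of its group in both genes. SER1, the aminotransferase after them, was at 133 and 128 (labelled replicate 3, 229) FPKM in WT 37 °C, against 252, 244 and 240.1 FPKM in WT 30 °C, and fell by 0.91 ± 0.10. SER3 overlaps the noncoding gene SRG1 by 77 bases in the R64 annotation, and no strand marking is stated, so their reads cannot be told apart there.

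Both asparagine synthetase genes were lower in all libraries labelled WT 37 °C. ASN2 was at 281 and 267 (labelled replicate 3, 383) FPKM in WT 37 °C, against 503, 507 and 489 FPKM in WT 30 °C, and fell by 0.87 ± 0.07 (adjusted p = 4.47e-07). ASN1 was at 514 and 475 (labelled replicate 3, 334) FPKM in WT 37 °C, against 562, 569.5 and 566 FPKM in WT 30 °C, and did not pass (-0.19 ± 0.11, adjusted p = 0.129), although it did after 75th percentile scaling (-0.44). GDH1 (YOR375C), which makes glutamate from ammonium, was at 319 and 351 (labelled replicate 3, 321) FPKM in WT 37 °C, against 497, 523 and 514 FPKM in WT 30 °C, and fell by 0.61 ± 0.08 (adjusted p = 2.65e-05). Of GDH1 too, all libraries labelled WT 37 °C were below WT 30 °C. GLN1 was at 1419 and 1413 FPKM in WT 37 °C replicates 1 and 2 and 959 in labelled replicate 3, against 1171, 1168 and 1125 FPKM in WT 30 °C. Its change of 0.29 ± 0.10 (adjusted p = 0.0234) was lost after 75th percentile scaling (0.04) and without WT 30 °C replicate 3, WT 37 °C replicate 1 or WT 37 °C replicate 2 (range 0.28 to 0.31).

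**Figure D2:**
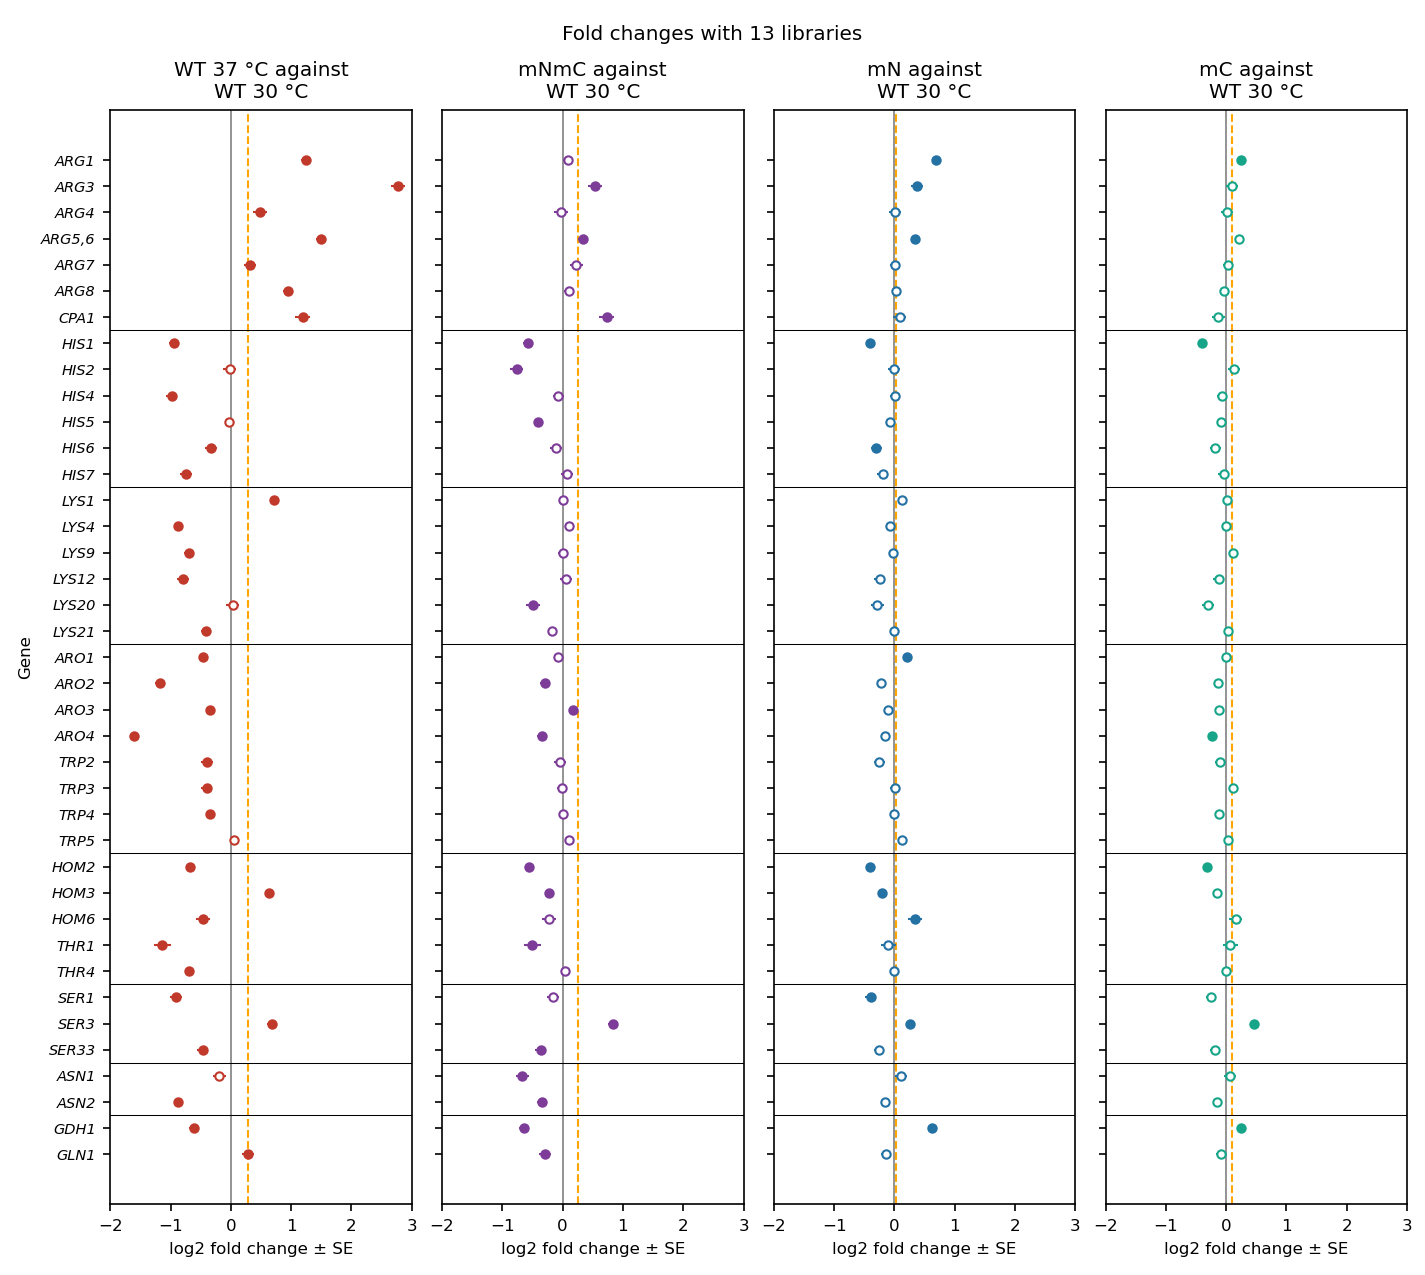
Log2 fold change of log2(FPKM + 1) with its SE (horizontal) for 39 of the 40 tested members (vertical, lines between pathways) in 4 comparisons with WT 30 °C, with 13 libraries; filled points passed the adjusted test and the dashed line is the median of all tested genes. Arginine genes lie right of 0 at 37 °C, up to 2.77 for ARG3, while 7 of 8 aromatic genes lie left of it, down to -1.61 for ARO4.

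Grouped by promoter letters, members with and without the Gcn4 core both held genes that moved each way. With 13 libraries, of the 22 tested members with TGACTC 5 were higher in WT 37 °C, 15 lower and 2 not called, with a median of -0.43. Of the 18 without it, 6 were higher, 8 lower and 4 not called, with a median of 0.00. As labelled the counts were 2 higher, 7 lower and 13 not called with it, and 5, 5 and 8 without it. GCN4 mRNA itself was at 965 and 1006 FPKM in WT 37 °C replicates 1 and 2 and 1284 in labelled replicate 3, against 1112, 1072 and 1130.0 FPKM in WT 30 °C, and did not pass (-0.16 ± 0.14, adjusted p = 0.331).

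In the double mutant mNmC at 30 °C, SER3 and part of the arginine genes rose, while genes of histidine, threonine, asparagine, glutamate and glutamine synthesis fell in 10 of 15 cases with 13 libraries. As labelled, 3 of 40 members were higher than in WT 30 °C (CPA1 and SER3 among them) and 6 lower (HIS1, HOM2, THR1, SER33, ASN2 and GDH1), against 26.9% of all genes called, 24.5% higher and 2.41% lower. With 13 libraries 6 were higher and 14 lower, against 48% of all genes, 40.6% higher and 7.39% lower, and all 9 calls as labelled were among them. The 9 were 5 without any 1 WT 30 °C library and 16 without the library labelled WT 37 °C replicate 3, with no share of all genes taken in these fits. After 75th percentile scaling 2 were higher and 11 lower as labelled (9.5% and 6.16% of all genes), and 3 higher and 22 lower with 13 libraries (20.3% and 16.9% of all genes). Before that scaling the members' median was -0.20 as labelled and -0.06 with 13 libraries, against 0.27 and 0.25 over all genes, which the scaling moved to 0.04 and 0.03. The comparison shares its WT 30 °C libraries with the other comparisons against WT 30 °C.

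The strongest rise in mNmC with 13 libraries was that of SER3, at 57.5 and 68.8 FPKM in mNmC replicates 1 and 2 and 55.8 in the library labelled replicate 3, against 32.1, 35.2 and 36.9 FPKM in WT 30 °C. All libraries labelled mNmC were above all of WT 30 °C (53% of all genes did not overlap), and the rise was 0.84 ± 0.08 (adjusted p = 2.04e-05). SER33 was at 80.04 and 84.6 (labelled replicate 3, 84.1) FPKM in mNmC, against 106, 105 and 105 FPKM in WT 30 °C, and fell by 0.36 ± 0.09. SER1 was at 217 and 221 (labelled replicate 3, 147) FPKM in mNmC, against 252, 244 and 240.1 FPKM in WT 30 °C. It did not pass (-0.16 ± 0.10), although it was called lower after 75th percentile scaling (-0.40). Arginine genes were higher in 4 of 8 cases with 13 libraries and lower in none, and after 75th percentile scaling in 2, CPA1 and ARG3, with ARG4 then called lower (-0.26). CPA1 was at 309 and 432 (labelled replicate 3, 506) FPKM in mNmC, against 225, 216 and 217 FPKM in WT 30 °C, and rose by 0.73 ± 0.12 (adjusted p = 0.000759). ARG3 was at 13.04 and 14.1 FPKM in mNmC replicates 1 and 2 and 72.8 in labelled replicate 3, against 9.33, 8.41 and 9.21 FPKM in WT 30 °C, and rose by 0.54 ± 0.12 (adjusted p = 0.00299), though not as labelled (1.32 ± 0.60, adjusted p = 0.12). Labelled replicate 3 was far above the other 2 libraries of ARG3, and also of ARG5,6 and ARG1. ARG5,6, at 24.6 and 24.1 (labelled replicate 3, 55.3) FPKM in mNmC, against 18.5, 18.7 and 20.03 FPKM in WT 30 °C, rose by 0.34 ± 0.08 and did not pass as labelled or after 75th percentile scaling. ARG1 was at 88.7 and 105 (labelled replicate 3, 211) FPKM in mNmC, against 93.9, 88.1 and 90.99 FPKM in WT 30 °C, and did not pass (0.09 ± 0.08).

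The deepest falls in mNmC with 13 libraries were in histidine, asparagine and glutamate genes. HIS2 (YFR025C), histidinol phosphatase, was at 36.8 and 34.4 FPKM in mNmC replicates 1 and 2 and 62.6 in labelled replicate 3, against 61.7, 61.9 and 59.2 FPKM in WT 30 °C. Replicates 1 and 2 were below all of WT 30 °C while labelled replicate 3 was above all of it. HIS2 fell by 0.76 ± 0.11 with 13 libraries (adjusted p = 0.000272) and did not pass as labelled (-0.49 ± 0.22, adjusted p = 0.115). ASN1 was at 331 and 379.9 (labelled replicate 3, 529.6) FPKM in mNmC, against 562, 569.5 and 566 FPKM in WT 30 °C, and fell by 0.67 ± 0.11 (adjusted p = 0.000486; adjusted p = 0.08 as labelled). GDH1 was at 305 and 351 (labelled replicate 3, 326) FPKM in mNmC, against 497, 523 and 514 FPKM in WT 30 °C, and fell by 0.64 ± 0.08 (adjusted p = 7.32e-05). HIS1 was at 317 and 344 (labelled replicate 3, 266) FPKM in mNmC, against 509, 472 and 499 FPKM in WT 30 °C, and fell by 0.58 ± 0.07. GDH1 and HIS1 were below WT 30 °C in all 3 libraries labelled mNmC.

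Among the other genes of mNmC, HOM2 was at 398 and 393 (labelled replicate 3, 364) FPKM in mNmC, against 585, 586 and 574 FPKM in WT 30 °C, and fell by 0.55 ± 0.07. THR1 was at 549.7 and 488 (labelled replicate 3, 329) FPKM in mNmC, against 729.8, 763 and 713 FPKM in WT 30 °C, and fell by 0.50 ± 0.14, a call lost without mNmC replicate 2 (range -0.59 to -0.42). HOM3 fell by 0.23 ± 0.06 (adjusted p = 0.0109), while the fold change as labelled was 0.06 ± 0.25. ASN2, LYS20, HIS5, ARO4 and ARO2 fell by 0.35 ± 0.07, 0.49 ± 0.11, 0.41 ± 0.07, 0.35 ± 0.07 and 0.29 ± 0.08, of which only ASN2 passed as labelled. ARO3 (0.18 ± 0.07, adjusted p = 0.0482) and GLN1 (-0.29 ± 0.10, adjusted p = 0.0362) passed by little, and not as labelled. ARO3 kept its call in 2 of 13 fits that left out 1 library and lost it after 75th percentile scaling, and GLN1 kept its call in 5 of 13. The calls of ARO2, HOM3 and SER33 were lost without mNmC replicate 1 (ranges -0.33 to -0.25, -0.28 to -0.17 and -0.39 to -0.32).

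**Figure D3:**
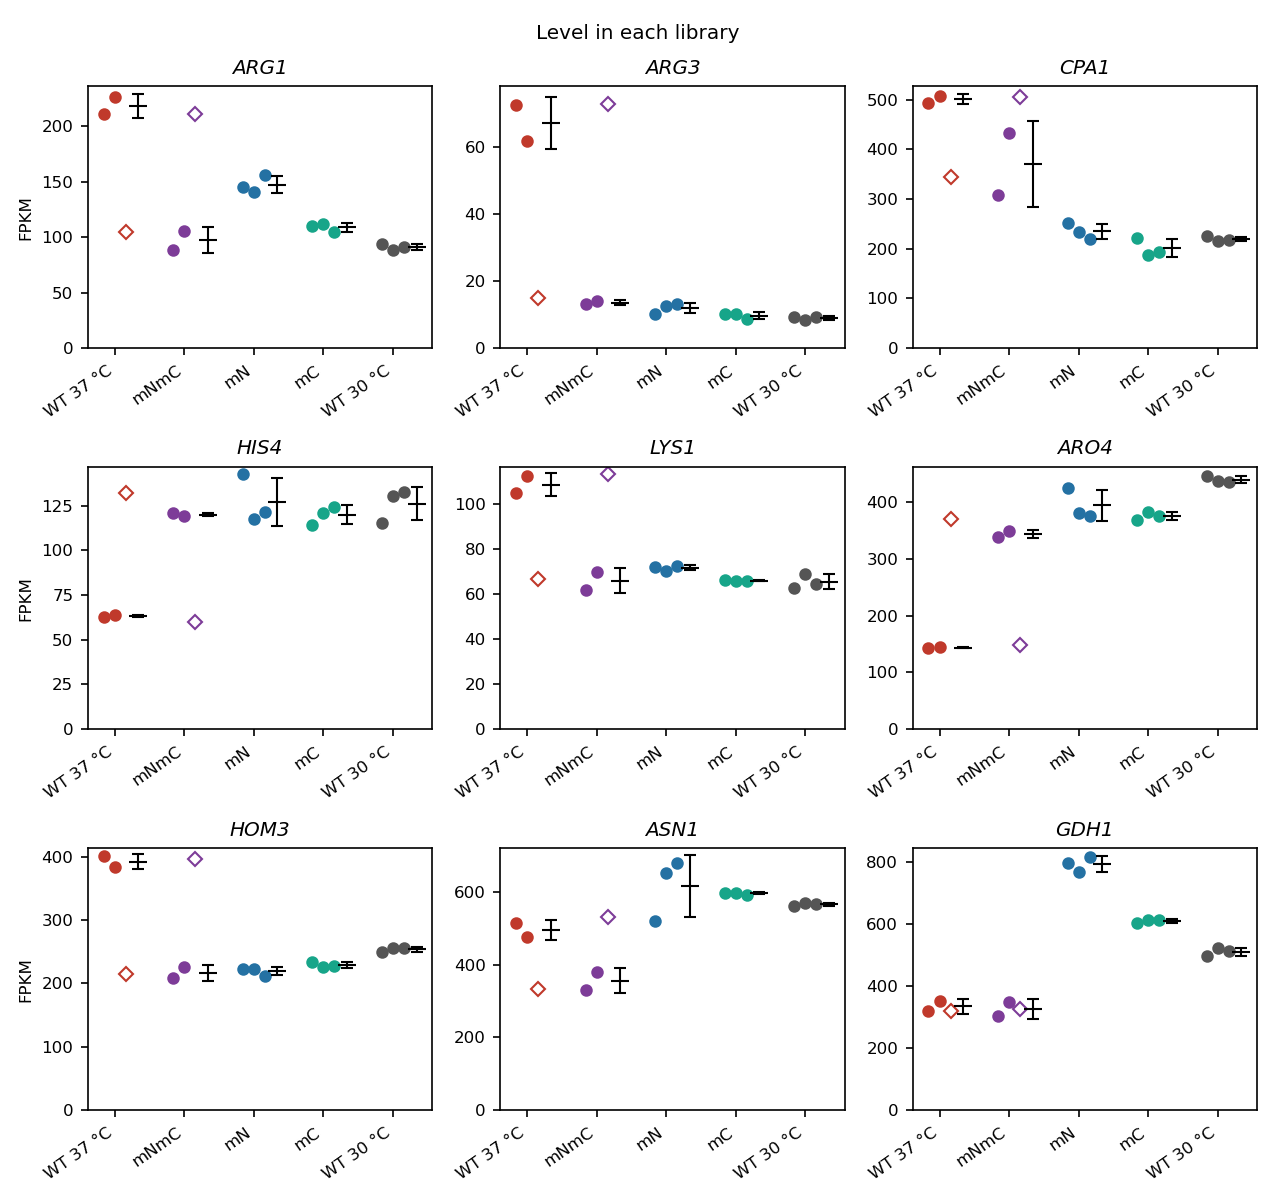
FPKM in each library (vertical, linear from 0) of 9 members in the 5 groups (horizontal); open diamonds are the libraries labelled WT 37 °C replicate 3 and mNmC replicate 3, and the bars are the mean and SD of the filled points. ARG3 stands at 72.6 and 61.7 FPKM in WT 37 °C replicates 1 and 2 and 9.33, 8.41 and 9.21 in WT 30 °C, and GDH1 at 797, 767 and 819 in mN and 497, 523 and 514 in WT 30 °C.

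In the single mutant mN GDH1 rose, and with 13 libraries so did ARG1, ARG3 and ARG5,6. As labelled, 1 of 40 members passed, GDH1, which was higher, against 0.453% of all genes called and 0.422% higher; 8 members and 745 genes had an unadjusted p under 0.05. GDH1 was at 797, 767 and 819 FPKM in mN, against 497, 523 and 514 FPKM in WT 30 °C, with no overlap, and rose by 0.63 ± 0.09 as labelled (adjusted p = 0.0108) and by 0.63 ± 0.07 with 13 libraries (adjusted p = 0.000255). As labelled, this call was lost without any 1 WT 30 °C library or without mN replicate 2 or 3 (count 0). Neither library left out of the 13 is in mN or WT 30 °C, so the fold changes were the same both ways. The spread shared by all groups differed, as in ARG1 with 0.69 ± 0.30 as labelled and 0.69 ± 0.07 with 13 libraries. With 13 libraries 7 members were higher and 5 lower, against 18.2% of all genes called, 12.8% higher and 5.36% lower; after 75th percentile scaling 5 were higher and 8 lower (12.5% and 8.19% of all genes). The count with 13 libraries was 4, 6 and 7 without WT 30 °C replicates 1, 2 and 3. Without mN replicate 1 (12 libraries) it was 8 higher and 9 lower, against 22.6% and 6.94% of all genes, and 4 higher and 13 lower after 75th percentile scaling (14.2% and 11.8%).

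Arginine genes were higher in 3 of 8 cases in mN and lower in none, with 13 libraries, with 12 and after 75th percentile scaling of either. ARG1 was at 145, 141 and 156 FPKM in mN, against 93.9, 88.1 and 90.99 FPKM in WT 30 °C, and rose by 0.69 ± 0.07 (adjusted p = 0.000247). ARG3 was at 10.3, 12.6 and 13.2 FPKM in mN, against 9.33, 8.41 and 9.21 FPKM in WT 30 °C, and rose by 0.38 ± 0.10 (adjusted p = 0.0267), with mN replicate 1 the lowest of its group; its call was lost without any 1 WT 30 °C library or mN replicate 2 or 3 (range 0.32 to 0.48). ARG5,6 was at 26.7, 22.2 and 24.4 FPKM in mN, against 18.5, 18.7 and 20.03 FPKM in WT 30 °C, and rose by 0.34 ± 0.07, a call lost without WT 30 °C replicate 1 (range 0.27 to 0.40). In these 3 genes every mN library lay above WT 30 °C, and 34.5% of all genes had groups that did not overlap. HIS1 was at 362, 365 and 389.8 FPKM in mN, against 509, 472 and 499 FPKM in WT 30 °C, and fell by 0.41 ± 0.06 (adjusted p = 0.002). HOM2 was at 403, 452 and 465 FPKM in mN, against 585, 586 and 574 FPKM in WT 30 °C, and fell by 0.40 ± 0.07 (adjusted p = 0.00264). SER1 was at 158, 197 and 209 FPKM in mN, against 252, 244 and 240.1 FPKM in WT 30 °C, and fell by 0.39 ± 0.09 with 13 libraries and 0.27 ± 0.05 with 12, the call being lost without WT 30 °C replicate 1 (range -0.47 to -0.27). All mN libraries of HIS1, HOM2 and SER1 were below all of WT 30 °C.

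HOM6 was at 1339, 1042 and 974 FPKM in mN, against 884, 887 and 849 FPKM in WT 30 °C, with mN replicate 1 highest. Its change was 0.34 ± 0.11 with 13 libraries (adjusted p = 0.0495) and 0.21 ± 0.07 with 12 (adjusted p = 0.0411), lost after 75th percentile scaling and in 10 of 13 fits that left out 1 library. SER3 (at 42.1, 41.5 and 41.2 FPKM in mN), ARO1, HIS6 and HOM3 also passed with 13 libraries, at 0.26, 0.21, -0.30 and -0.21; ARO1, HIS6 and HOM3 were lost after 75th percentile scaling. SER3 and HIS6 were each lost without several single libraries, ARO1 without any 1 WT 30 °C library, and HOM3 without any 1 WT 30 °C library or mN replicate 3 (ranges 0.20 to 0.30, -0.33 to -0.23, 0.17 to 0.24 and -0.22 to -0.18). With mN replicate 1 left out, ASN1 (0.23 ± 0.06) also passed as higher and ARO4 (-0.22 ± 0.04), ASN2, ARO3 and ARO2 as lower. THR1 was at 553, 764 and 762 FPKM in mN, against 729.8, 763 and 713 FPKM in WT 30 °C, and GLN1 at 896, 1138 and 1127 FPKM in mN, against 1171, 1168 and 1125 FPKM in WT 30 °C; in both, mN replicate 1 alone lay below WT 30 °C, and neither passed.

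In mC no member passed as labelled (limma, 0.188% of all genes called), and 4 members and 680 genes had an unadjusted p under 0.05. Neither library left out of the 13 is in mC or WT 30 °C, so the fold changes were the same both ways. The spread shared by all groups differed, as in HIS1 with -0.40 ± 0.13 as labelled. The count of 0 therefore does not show that mC left the members unchanged. With 13 libraries 3 were higher and 3 lower, against 14.8% of all genes called, 12.3% higher and 2.45% lower, and after 75th percentile scaling 1 was higher and 6 lower (6.47% and 4.92%). The highest was SER3, at 47.03, 47.8 and 50.3 FPKM in mC, against 32.1, 35.2 and 36.9 FPKM in WT 30 °C, which rose by 0.47 ± 0.07 (adjusted p = 0.00332; 0.0891 as labelled). GDH1 was at 603, 613 and 615 FPKM in mC, against 497, 523 and 514 FPKM in WT 30 °C, and rose by 0.25 ± 0.07 (adjusted p = 0.0308). ARG1 was at 109.6, 112 and 104 FPKM in mC, against 93.9, 88.1 and 90.99 FPKM in WT 30 °C, and rose by 0.25 ± 0.07 (adjusted p = 0.0407). In SER3, GDH1 and ARG1 every mC library lay above every WT 30 °C library. HIS1 was at 355, 384 and 379 FPKM in mC, against 509, 472 and 499 FPKM in WT 30 °C, and fell by 0.40 ± 0.06 (adjusted p = 0.00298). HOM2 was at 450.2, 491 and 469 FPKM in mC, against 585, 586 and 574 FPKM in WT 30 °C, and fell by 0.31 ± 0.07, and ARO4 was at 369, 384 and 376 FPKM in mC, against 447, 438 and 436 FPKM in WT 30 °C, and fell by 0.23 ± 0.06. In HIS1, HOM2 and ARO4 every mC library lay below WT 30 °C, and 46.4% of all genes had groups that did not overlap. After 75th percentile scaling GDH1, ARG1 and ARO4 no longer passed, and all 3 were lost without any 1 library of mC or WT 30 °C (ranges 0.23 to 0.27, 0.23 to 0.28 and -0.24 to -0.21), while HOM2 was lost without WT 30 °C replicate 1 (range -0.34 to -0.28). The count was 2, 3 and 3 without WT 30 °C replicates 1, 2 and 3, 3 without each mC library and 13 without mN replicate 1. Leaving out mN replicate 1 changes only the estimate of the spread, and 33.3% of all genes were then called. A fit on mC and WT 30 °C alone, with all their libraries, called 12 members, 3 higher and 9 lower, against 23.1% and 6.09% of all genes.

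Set against each other, mC and mN differed in 2 members with 13 libraries, both lower in mC, against 1.03% of all genes called and 0.578% lower. None passed as labelled (limma; 0.156% of all genes), where 1 member and 274 genes had an unadjusted p under 0.05. ARG1 was at 109.6, 112 and 104 FPKM in mC and 145, 141 and 156 FPKM in mN, a change of -0.43 ± 0.07 (adjusted p = 0.0162). GDH1 was at 603, 613 and 615 FPKM in mC and 797, 767 and 819 FPKM in mN, a change of -0.38 ± 0.07 (adjusted p = 0.0213). In both genes every mC library lay below every mN library, and 17.3% of all genes had groups that did not overlap, in either direction. ARG1 was lost without mN replicate 3 or mC replicate 2 or 3, and GDH1 without mN replicate 2 or 3 or any mC library; the count was then 0 or 1. The fold changes of the 2 genes ranged over -0.46 to -0.39 and -0.40 to -0.36.

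The double mutant at 30 °C and heated wild type differed in most members with 13 libraries. As labelled, limma called 0 members and 0% of all genes, and 0 members and 65 genes had an unadjusted p under 0.05. Each labelled group holds a library that resembles the other group, so the fit as labelled cannot show whether the 2 conditions differ. With 13 libraries 18 members were higher in mNmC and 13 lower, against 56.8% of all genes called, 28% higher and 28.8% lower, with the same split after 75th percentile scaling (30.5% and 28.6%). Each group then has 2 libraries. Arginine genes were lower in mNmC in 6 of 8 cases, led by ARG3, at 13.04 and 14.1 FPKM in mNmC and 72.6 and 61.7 FPKM in WT 37 °C, a difference of -2.22 ± 0.13 (adjusted p = 9.02e-08). Aromatic genes were higher in 7 of 8, led by ARO4, at 339.8 and 349 FPKM in mNmC and 143 and 145 FPKM in WT 37 °C, a difference of 1.25 ± 0.07 (adjusted p = 1.15e-07). LYS4, HIS4, LYS12 and HIS7 were higher in mNmC by 0.99, 0.91, 0.85 and 0.82, and HOM3, LYS1, HIS2 and GLN1 differed by -0.85, -0.71, -0.74 and -0.58. GDH1, SER3, SER33 and HOM2 did not pass, at -0.03 ± 0.08, 0.16 ± 0.09, 0.12 ± 0.10 and 0.12 ± 0.08. The calls of CPA1, LYS21 and TRP2 were lost without single libraries of the 2 groups (ranges -0.69 to -0.21, 0.23 to 0.26 and 0.30 to 0.39).

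The 4 comparisons with WT 30 °C share its 3 libraries, and the values of 4 members stand side by side as follows, with 13 libraries. SER3 had 0.68 in WT 37 °C, 0.84 in mNmC, 0.26 in mN and 0.47 in mC. HIS1 had -0.95, -0.58, -0.41 and -0.40 in the same order. HOM2 had -0.68, -0.55, -0.40 and -0.31. GDH1 was below 0 in part of them and above in the others, with -0.61 in WT 37 °C, -0.64 in mNmC, 0.63 in mN and 0.25 in mC.

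Where a step has a pair of genes, the balance of the pair moved with the condition. ARO3 had 1.19 to 1.30 times the FPKM of ARO4 in WT 37 °C replicates 1 and 2 (labelled replicate 3, 0.634), 0.729 to 0.767 times in mNmC replicates 1 and 2 (labelled replicate 3, 1.25), 0.526 to 0.555 in mN, 0.541 to 0.561 in mC and 0.507 to 0.523 in WT 30 °C. Among the 13 libraries, ARO3 was the higher of the pair in the heated cultures alone. The ratio of SER3 to SER33 was 0.720 to 0.766 in WT 37 °C replicates 1 and 2 (labelled replicate 3, 0.790), 0.718 to 0.813 in mNmC replicates 1 and 2 (labelled replicate 3, 0.664), 0.418 to 0.536 in mN, 0.495 to 0.542 in mC and 0.302 to 0.350 in WT 30 °C, so that all other groups lay above WT 30 °C. The ratio of ASN1 to ASN2 was 1.78 to 1.83 in WT 37 °C replicates 1 and 2 (labelled replicate 3, 0.870), 0.871 to 0.946 in mNmC replicates 1 and 2 (labelled replicate 3, 1.83), 1.13 to 1.56 in mN, 1.30 to 1.38 in mC and 1.12 to 1.16 in WT 30 °C. With 13 libraries this ratio lay above WT 30 °C in the heated and the mC cultures and below it in the double mutant, while mN overlapped WT 30 °C. LYS20 to LYS21 stood at 1.91 to 2.06 in WT 37 °C replicates 1 and 2 (labelled replicate 3, 1.20), 1.11 to 1.20 in mNmC replicates 1 and 2 (labelled replicate 3, 2.24), 1.08 to 1.25 in mN, 1.09 to 1.25 in mC and 1.41 to 1.48 in WT 30 °C. With 13 libraries all mutants lay below WT 30 °C in this ratio and heated wild type above it. Here LYS20 was at 131 and 125 (labelled replicate 3, 207) FPKM in mNmC, 123, 162 and 164 in mN, 158, 144 and 139.7 in mC and 187, 180.5 and 175 in WT 30 °C, and LYS21 at 109.5 and 112 (labelled replicate 3, 92.4) in mNmC, 113, 129 and 133 in mN, 127, 128 and 128 in mC and 126, 126 and 124 in WT 30 °C. No source used here says how shared reads were assigned. In R64 the coding sequences of LYS20 and LYS21 have 91.4% of aligned bases in common, with a longest identical stretch of 278 bases, against 66.3% and 17 bases for ARO3 and ARO4, 82.4% and 56 for SER3 and SER33, and 81.2% and 83 for ASN1 and ASN2. The values of LYS20 and LYS21 are therefore the least certain of the 4 pairs.

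**Figure D4:**
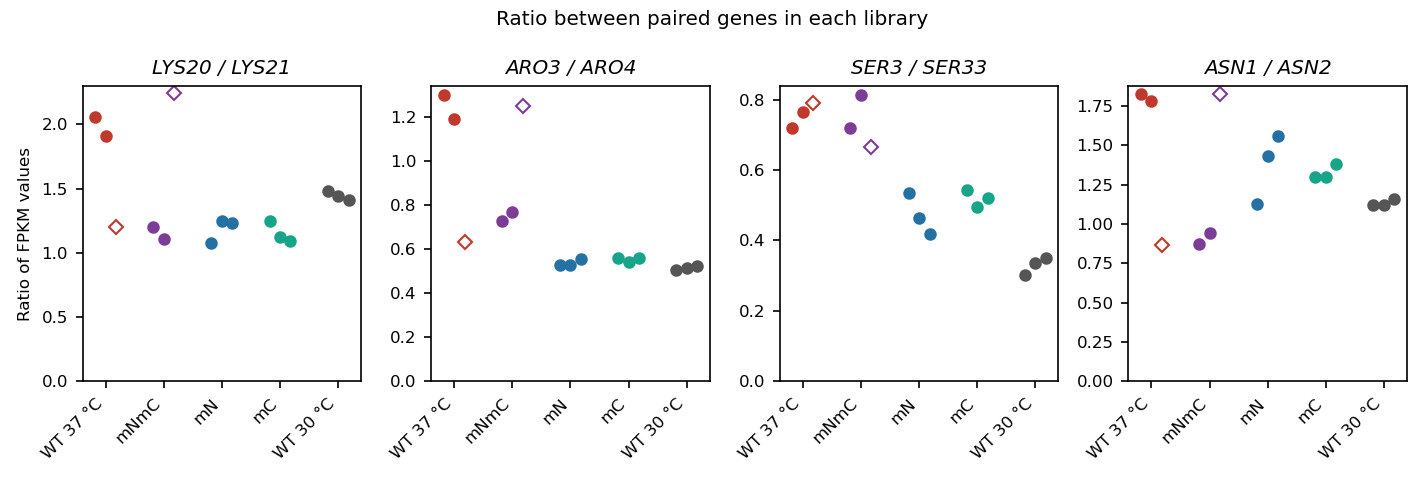
Ratio of the FPKM values of paired genes (vertical, linear from 0) in each library of the 5 groups (horizontal); open diamonds are the libraries labelled WT 37 °C replicate 3 and mNmC replicate 3. ARO3/ARO4 is 1.19 to 1.30 in WT 37 °C replicates 1 and 2 and 0.507 to 0.523 in WT 30 °C, and SER3/SER33 is above WT 30 °C in every other library.

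Of 22 further enzymes of the same or neighbouring pathways, 4 were higher and 4 lower in WT 37 °C than in WT 30 °C as labelled, against 32.1% and 5.97% of all genes. With 13 libraries the counts were 6 and 9, against 47% and 18.9%. After 75th percentile scaling they were 2 and 7 as labelled (16.3% and 13.5% of all genes), and 4 and 10 with 13 libraries (34.3% and 30%). ARO9, an aromatic aminotransferase of amino acid breakdown, was at 287 and 258 FPKM in WT 37 °C replicates 1 and 2 and 53.9 in labelled replicate 3, against 33.7, 37.02 and 34.9 FPKM in WT 30 °C, and rose by 2.91 ± 0.08, while PRO1, the first enzyme of proline synthesis, and SHM1, a mitochondrial serine hydroxymethyltransferase, fell by 0.92 ± 0.08 and 0.89 ± 0.09. In mNmC 2 were higher and 1 lower as labelled (24.5% and 2.41% of all genes). With 13 libraries the counts were 6 and 4 (40.6% and 7.39%), among them HIS3 (-1.27) and ARO9 (0.66). After that scaling they were 0 and 5 as labelled (9.5% and 6.16% of all genes), and 1 and 8 with 13 libraries (20.3% and 16.9%). In mN none passed as labelled (limma, 0.453% of all genes called), where 3 had an unadjusted p under 0.05. With 13 libraries 3 were higher and 1 lower, against 12.8% and 5.36% of all genes, and 3 and 3 after that scaling (12.5% and 8.19%). Among them were HIS3 (-0.88), the second glutamate dehydrogenase gene GDH3 (0.66) and the alanine aminotransferase gene ALT1 (0.61). In mC none passed as labelled (limma, 0.188% of all genes called), where 2 had an unadjusted p under 0.05. With 13 libraries 1 was lower, the serine hydroxymethyltransferase gene SHM2 (-0.25, lost after that scaling), against 2.45% of all genes.

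Of 20 regulators of these pathways, 5 were higher and 0 lower in WT 37 °C than in WT 30 °C as labelled, against 32.1% and 5.97% of all genes. With 13 libraries the counts were 9 and 4, against 47% and 18.9%. After 75th percentile scaling they were 1 and 1 as labelled (16.3% and 13.5% of all genes), and 6 and 7 with 13 libraries (34.3% and 30%). Such counts cannot be read as particular to the regulators. Named for their size are the rises of the nitrogen regulator genes GLN3 (0.84) and GAT1 (0.64) and of ARG82 (0.82), an inositol polyphosphate kinase needed for arginine repression. In mNmC 3 were higher and 1 lower as labelled (24.5% and 2.41% of all genes), and 5 and 2 with 13 libraries (40.6% and 7.39%). After that scaling the counts were 0 and 1 as labelled (9.5% and 6.16% of all genes), and 1 and 2 with 13 libraries (20.3% and 16.9%). BAS1, an activator of histidine and purine genes, was at 19.1 and 26.96 FPKM in mNmC replicates 1 and 2 and 9.90 in labelled replicate 3, against 11.4, 11.4 and 12.6 FPKM in WT 30 °C, and rose by 0.89 ± 0.14, while GAT1 fell by 0.75 ± 0.12. With 13 libraries GAT1 rose by 0.54 ± 0.11 in mN and by 0.54 ± 0.11 in mC, with CHA4 the other call in mN (0.29, lost after that scaling). Of all genes 12.8% were called higher in mN and 12.3% in mC. None of the 20 passed in mN or mC as labelled (limma, 0.453% and 0.188% of all genes called), where 1 and 0 had an unadjusted p under 0.05. GCN4 was at 1142 and 1143 (labelled replicate 3, 1001) FPKM in mNmC, 1553, 1055 and 1042 in mN and 859, 943 and 944 in mC, against 1112, 1072 and 1130.0 FPKM in WT 30 °C, and passed in no comparison. Of the arginine repressor genes, MCM1 was at 53.5, 151 and 153 FPKM in mN, against 134, 149 and 147 FPKM in WT 30 °C, with mN replicate 1 alone low; it did not pass, and the part of this in the arginine genes of mN replicate 1 was not tested.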

How the data were processed

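Polyadenylated RNA was sequenced from 15 yeast cultures in 5 groups of 3. Per the labels' protocols, RNA was extracted with hot phenol, selected with oligo(dT) and primed with random hexamers, and no strand marking is stated. Reads were processed with Bowtie2 2.2.3, TopHat2 2.0.12 and HTSeq 0.6.1, per the submitters' processing notes; no source used here gives the genome build, the annotation or the handling of shared reads. The authors deposited 1 table of FPKM values for 7126 genes. FPKM multiplied by the R64 gene length was divided by a unit fitted to each library. This gave whole reads, within 0.01 read, for 99.9% of single-exon genes above 0 in each library. Depths were worked out from the fitted units and not summed from reads. They were 15462618 to 25409519 reads, and the members' 174 reads or more limit counting error.

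Gene symbols and promoters come from RefSeq R64, which matched 6048 identifiers and names ARG5,6 as ARG56. Values were used as log2(FPKM + 1), on the 6399 genes that reached 1 FPKM in 3 or more libraries. One limma model (version 3.58.1 in R 4.3.3, with a trend, no replicate block) was fitted over all groups, with Benjamini-Hochberg adjustment over all genes tested in each of 6 comparisons and a threshold of 0.05. The procedure was tested on simulated data. Other software was Python 3.11.15 with numpy 2.4.6, pandas 2.3.3, matplotlib 3.10.9 and Biopython 1.88. Members, other gene lists and the fits with 13 and 12 libraries were chosen with earlier results of these data known. Values in every library are given for members with the 3 largest called changes each way in a comparison with WT 30 °C, the highest member of each pathway, gene pairs and members singled out after their values were seen; of the other lists up to 3 genes with the largest called changes are named. The counts include 1 member that is not reported singly here. Alternatives were 75th percentile scaling, no trend, other filters, a pseudocount of 0.1, a replicate block, fits on the groups compared alone and leaving out each library.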

Additional observations from a re-analysis of the deposited data

How the results depend on the processing

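Calls of the 40 tested members depended most on the 2 libraries that stood apart from their labels. With 13 libraries the number called was 34 in WT 37 °C against WT 30 °C, 20 in mNmC against WT 30 °C, 12 in mN and 6 in mC against WT 30 °C, 2 in mC against mN and 31 in mNmC against WT 37 °C. As labelled these were 19, 9, 1, 0, 0 and 0. Among mN, mC and WT 30 °C, which hold neither library, the fold changes were the same and the shared spread differed. As labelled, mNmC and WT 37 °C each held a library like the other group, so the last 0 does not show that they are alike. HOM3 in mNmC against WT 30 °C was 0.06 as labelled and -0.23 with 13 libraries, where it was called. It was at 208 and 225 FPKM in mNmC replicates 1 and 2 and at 396 in labelled replicate 3, against 250, 255 and 256 FPKM in WT 30 °C. The change of sign thus comes with leaving out labelled replicate 3, and why that library differs was not tested. Among values called neither way, 13 libraries changed the sign of 7 others, among them HIS7, LYS4, LYS12 and THR4 in mNmC against WT 30 °C (-0.20, -0.19, -0.21 and -0.20 as labelled, 0.07, 0.11, 0.06 and 0.04 with 13). The 75th percentile scaling changed that of 20, such as ARG4 in mNmC (0.15 to -0.09) and GLN1 in WT 37 °C (0.11 to -0.12). Leaving out 1 library changed 56 of 3600 signs, none of them of a called value.

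A fit on the compared groups alone, with all libraries, called 11 members in WT 37 °C against WT 30 °C (27% of all 6399 genes), 4 in mN (5.92%) and 12 in mC (29.2%). It ended the calls of ARO2 and ARO4 in WT 37 °C (adjusted p = 0.064 and 0.0705 by limma). Leaving out 1 library in turn gave 8 to 32 calls in WT 37 °C, 5 to 16 in mNmC, 0 to 1 in mN and 0 to 1 in mC, each against WT 30 °C, and 0 to 0 in the other comparisons. The 32 and 16 came without the library labelled WT 37 °C replicate 3. With 13 libraries the ranges were 31 to 36, 15 to 25, 4 to 17 and 2 to 13, then 0 to 2 in mC against mN and 28 to 33 in mNmC against WT 37 °C. Of 240 values each, no trend and no filter changed 1 call, and the filter at 10 FPKM and the pseudocount of 0.1 changed 0.

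Replicate numbers did not pair the samples by the rule used, a correlation over 0.1 between the deviations from the group means in every same-numbered pair. These were -0.95 to 0.15 in 30 pairs as labelled and -0.05 to 0.15 in 23 pairs with 13 libraries, 3 over 0.1 both times. As labelled 7 of 15 libraries correlated best with their own number, and with 13 libraries 10 of 13, a hint from the data and not from the design. With all libraries, a fit with the replicate block called 12 members in WT 37 °C against WT 30 °C, 4 higher and 8 lower, against 26.1% and 3.31% of all genes, and 7 in mNmC against WT 30 °C (21.2% of all genes). Among the calls lost were ARG1, ARG8, HIS6, LYS21, HOM6 and SER1 in WT 37 °C and THR1 and ASN2 in mNmC, at adjusted p-values of 0.0504 to 0.0644 (limma).

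Depth did not limit these genes, with at least 174 reads in each library, but WT 37 °C and mNmC have 2 libraries each in the fits with 13.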
